A study of Mus musculus with 335 samples.

Results

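The genes described are 6 cytokine genes, Il24, Tslp, Il33, Il6, Lif and Il11, of 20188 genes measured by RNA sequencing in 335 libraries from mouse models of metastatic mammary cancer. They were read from the expression table by symbol in each of 61 sample groups, and libraries of the same tissue of an animal were averaged, which gave 281 animals or cultures. The genes were picked with earlier results of these data known. Il24 was selected on its RPKM in lung metastases against primary tumours of the line 6DT1, where it stood out, so its values in that contrast are given as a description. The study set paired primary tumours and metastases side by side in many models to find expression particular to metastases, both within models and shared between them.

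Lung metastases gave 130 libraries, liver metastases 20, spleen metastases 5 and brain metastases 2. Primary tumours gave 127 and resected primary tumours 4. Cultured lines gave 24 libraries, tumour-adjacent lung of MMTV-PyMT mice 5, liver beside metastases 8, spleen beside metastases 2, healthy lung 4 and healthy liver 4. Titles code the tumour-adjacent lung LungPrecond and the healthy lung LungUncond. They do not say whether the tumour-adjacent lung held metastases. No sample was treated. In the allograft models a tumour line was placed in the mammary gland (orthotopic), the tail vein or the heart of a mouse. The labels give Myc as the driver of 6DT1, Myc with VEGF for Mvt1, PyMT (polyoma middle T) for Met1, SV40 T antigen for M6 and Pik3ca for HRM1. They give the driver of 4T1, 4T07, 67NR, D2A1, E0771, EMT6, F311, R3T and TSAE1 as unknown. Strain entries of the allografts are BALB for the 4T1, 4T07, 67NR, D2A1, EMT6, F311 and TSAE1 lines, FVB for 6DT1, Mvt1, Met1, HRM1 and M6 injected into the heart, REAR for orthotopic M6, BL6 for E0771 and 129S1J for R3T. In the transgenic models tumours arose in the animal itself, under MMTV-PyMT with strain entries FVB, BL6, BL10, CAST or MOLF, under MMTV-Myc or MMTV-Neu in FVB, or under SV40 T antigen (C3Tag). Some titles in these groups read BL6N or BL10J, and such animals were grouped by their strain entry with BL6 and BL10. The MMTV promoter is active chiefly in mammary epithelium, so the transgenes under it act mainly there. Healthy tissue came from FVB mice without an oncogene. Lines labelled 4T1, 4T07 and 67NR are sisters derived from the same BALB/c mammary tumour, and a line is a selected population of tumour cells. Ages were not among the labels used here.

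Some libraries stood apart from their labels. The Mvt1 primary tumour of animal 5 had 35.7 RPKM of Myc, against 354 to 412 in the other 5 Mvt1 tumours. Its profile correlated best with 4T1 primary tumours (r = 0.91 over 13615 genes), which filled its 5 nearest places, and at most at 0.46 with its own group. The lung metastasis of 1 MMTV-PyMT FVB animal had 1.2 RPKM of the casein gene Csn3, against 4541 to 11875 in the others, and 55027 RPKM of the surfactant gene Sftpc. The lone tail vein metastasis of Met1 had 0.0605 RPKM of Csn3 and 71546 RPKM of Sftpc, and it was the profile nearest to that metastasis (r = 0.93). Differences in the 6 genes that use the first 2 of these are also given without them where a value is printed. Group means, list and marker values and shares of all genes called include them. Reads per library, derived from the steps of the deposited values, ran from 8106343 to 54906213 with a median of 27175853. At the median, 1 read was worth 0.00795 RPKM for Lif to 0.0236 RPKM for Tslp, so levels under about 0.1 RPKM rest on few reads.

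Il24 belongs to the IL-20 group of the IL-10 family and signals through Il20rb paired with Il20ra or Il22ra1, which activate STAT3. Tslp and Il33 are alarmins, cytokines that epithelial and stromal cells release on stress or damage. Tslp acts through Crlf2 with Il7r, and Il33 through Il1rl1 (ST2) with Il1rap, mostly on immune cells of the type 2 response. Il6, Lif and Il11 share the signalling chain gp130 (Il6st) and add Il6ra, Lifr or Il11ra1, and the JAK and STAT3 signal that follows induces its own inhibitor Socs3. In mammary tumours such cytokines can come from tumour cells, fibroblasts, endothelium or leukocytes, and in bulk tissue fewer cells of a type and less RNA per cell cannot be told apart.

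Promoters of 4 of the 6 genes were looked up in the RefSeq table of build GRCm38.p6. That build is not the mm9 build of the expression data, so the coordinates refer to GRCm38.p6 alone. Each sequence holds the 250 bases before a start site, read 5′ to 3′ on the strand of the gene. They were searched on both strands for AP-1 sites (TGANTCA), STAT sites (TTCNNNGAA), NF-kB sites (the kB consensus), CRE sites (TGACGTCA) and the TATA box (TATAAA). These letters occur in 6.75%, 7.01%, 1.21%, 1.55% and 12.4% of 32817 mouse promoters, in that order. The promoters of Il6 at chr5:30012864-30013113, of Lif at chr11:4257318-4257567 and of Il11 at chr7:4778142-4778391 (minus strand) are shown because each holds an AP-1 match. The promoter of Il33 at chr19:29945540-29945789 is shown because it holds the TATA box nearest to a start. Capitals mark the matches.

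Il6: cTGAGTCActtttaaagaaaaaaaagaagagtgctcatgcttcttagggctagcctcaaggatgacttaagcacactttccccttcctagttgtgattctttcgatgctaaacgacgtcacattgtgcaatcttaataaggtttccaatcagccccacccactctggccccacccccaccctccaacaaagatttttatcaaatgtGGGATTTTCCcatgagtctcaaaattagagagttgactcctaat

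Lif: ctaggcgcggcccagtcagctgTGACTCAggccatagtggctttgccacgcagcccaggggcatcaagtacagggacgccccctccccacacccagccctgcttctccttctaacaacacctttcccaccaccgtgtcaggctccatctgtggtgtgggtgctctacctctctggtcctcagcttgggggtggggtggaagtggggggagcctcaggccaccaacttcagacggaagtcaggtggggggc

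Il11: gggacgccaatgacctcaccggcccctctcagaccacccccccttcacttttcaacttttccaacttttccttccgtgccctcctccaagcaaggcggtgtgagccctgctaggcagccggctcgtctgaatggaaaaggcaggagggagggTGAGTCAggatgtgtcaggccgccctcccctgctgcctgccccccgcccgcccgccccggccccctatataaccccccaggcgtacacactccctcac

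Il33: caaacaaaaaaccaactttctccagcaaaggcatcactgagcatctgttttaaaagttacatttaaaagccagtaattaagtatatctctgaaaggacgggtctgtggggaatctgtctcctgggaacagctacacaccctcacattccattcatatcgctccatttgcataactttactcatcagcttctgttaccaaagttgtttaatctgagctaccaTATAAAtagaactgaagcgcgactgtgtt

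The AP-1 match starts at base -249 in Il6, -228 in Lif and -98 in Il11, counted from the start site. Il6 also holds an NF-kB match at -44, and Il33 the TATA box at -29. A further Il33 start (chr19:29924863-29925112) holds TATAAA at -203, and a further Il11 start (chr7:4782858-4783107) holds none of the motifs. A match is a run of letters and does not show that a factor binds there.

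Levels set the 6 genes apart. Il33 was the most widely detected: its mean was 1 RPKM or more in 55 of 61 groups and 10 or more in 27. Lif followed with 51 and 9 groups, Il24 and Tslp with 27 each (9 and 7 at 10 or more), Il11 with 18 and 2, and Il6 with 5 and 1. Il24 was listed at 0 in 52 of the 335 libraries and Il6 in 17, whereas Il33 and Il11 were above 0 in all of them. The highest library stood at 575 RPKM for Tslp, 206 for Il24, 126 for Lif, 118 for Il11, 104 for Il33 and 51.7 for Il6.

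Il24 had its highest group mean in orthotopic 6DT1 lung metastases (94.2 ± 43.8 RPKM, SD, n = 6 animals). Next came HRM1 primary tumours (42.3 ± 16.1, n = 4), cultured 4T1 cells (38.2 ± 22.6, n = 4) and TSAE1 primary tumours (28.0 ± 7.93, n = 4). Orthotopic Mvt1 lung metastases (21.7 ± 20.6, n = 6), Mvt1 tail vein metastases (18.9 ± 11.5, n = 6), cultured M6 cells (15.7 ± 6.97, n = 3) and F311 tumours (14.9 ± 5.32, n = 4) came after them. The single 6DT1 liver metastasis animal had 7.95 RPKM and the liver beside it 0.289. Lung and liver of healthy mice were at 0 in each of the 4 animals. Groups next to each other in an order by mean are close by construction. The overlap of ranges in 59 of 60 neighbour pairs therefore tests no difference, here or for the genes below.

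Tslp was led by 2 groups of the same line, 4T07 primary tumours (306 ± 175 RPKM, n = 6) and cultured 4T07 cells (279 ± 51.9, n = 4). The 4T1 groups filled the next places, with a median of 59.8 RPKM in orthotopic lung metastases (2.0 to 346) and means of 84.5 ± 43.9 in primary tumours, 62.8 ± 20.3 in cultured cells and 50.5 ± 12.8 in tail vein metastases. Mvt1 primary tumours averaged 23.0 ± 50.1 RPKM, but their median was 2.93, since the tumour of animal 5 had 125. Healthy lung itself had 3.68 ± 1.2 RPKM (n = 4) and ranked 9 of 61. Ranges overlapped in 58 of 60 neighbour pairs.

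Il33 was highest in F311 primary tumours (51.9 ± 28.7 RPKM, n = 4). The lone Met1 tail vein metastasis had 50.5 RPKM, with its label in doubt. Orthotopic 6DT1 metastases (38.3 ± 24.3, n = 6), tumour-adjacent PyMT lung (33.1 ± 17.3, n = 5), orthotopic 4T1 metastases (29.9 ± 13.5, n = 6) and 67NR primary tumours (28.7 ± 15.9, n = 6) followed. Healthy lung stood at 14.8 ± 4.38 RPKM and healthy liver at 0.509 ± 0.167 (n = 4 each). Ranges overlapped in 59 of 60 neighbour pairs.

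The gp130 cytokines were highest in culture. Lif averaged 63.6 ± 50.0 RPKM in cultured 4T1 cells (n = 4), 51.4 ± 8.47 in cultured Met1 cells (n = 3), 26.7 ± 24.1 in cultured M6 cells (n = 3) and 26.3 ± 23.8 in cultured 4T07 cells (n = 4). Among tumours it was led by F311 (18.4 ± 1.81, n = 4), and E0771 tumours were lowest (0.46 ± 0.133, n = 4). Il11 averaged 58.0 ± 59.3 RPKM in cultured 4T07 cells and 16.7 ± 4.13 in 4T07 tumours (n = 6), whose range lay above that of the next group, cultured 6DT1 cells (3.82 ± 0.374, n = 3). Il6 reached 26.7 ± 23.3 RPKM in cultured M6 cells. In the next groups it stood at 1.75 ± 3.19 in Mvt1 tail vein metastases (n = 6) and 1.67 ± 1.44 in 67NR tumours (n = 6). Ranges overlapped in 59 of 60 neighbour pairs for Il6 and in 57 for Lif and for Il11.

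**Figure D1:**
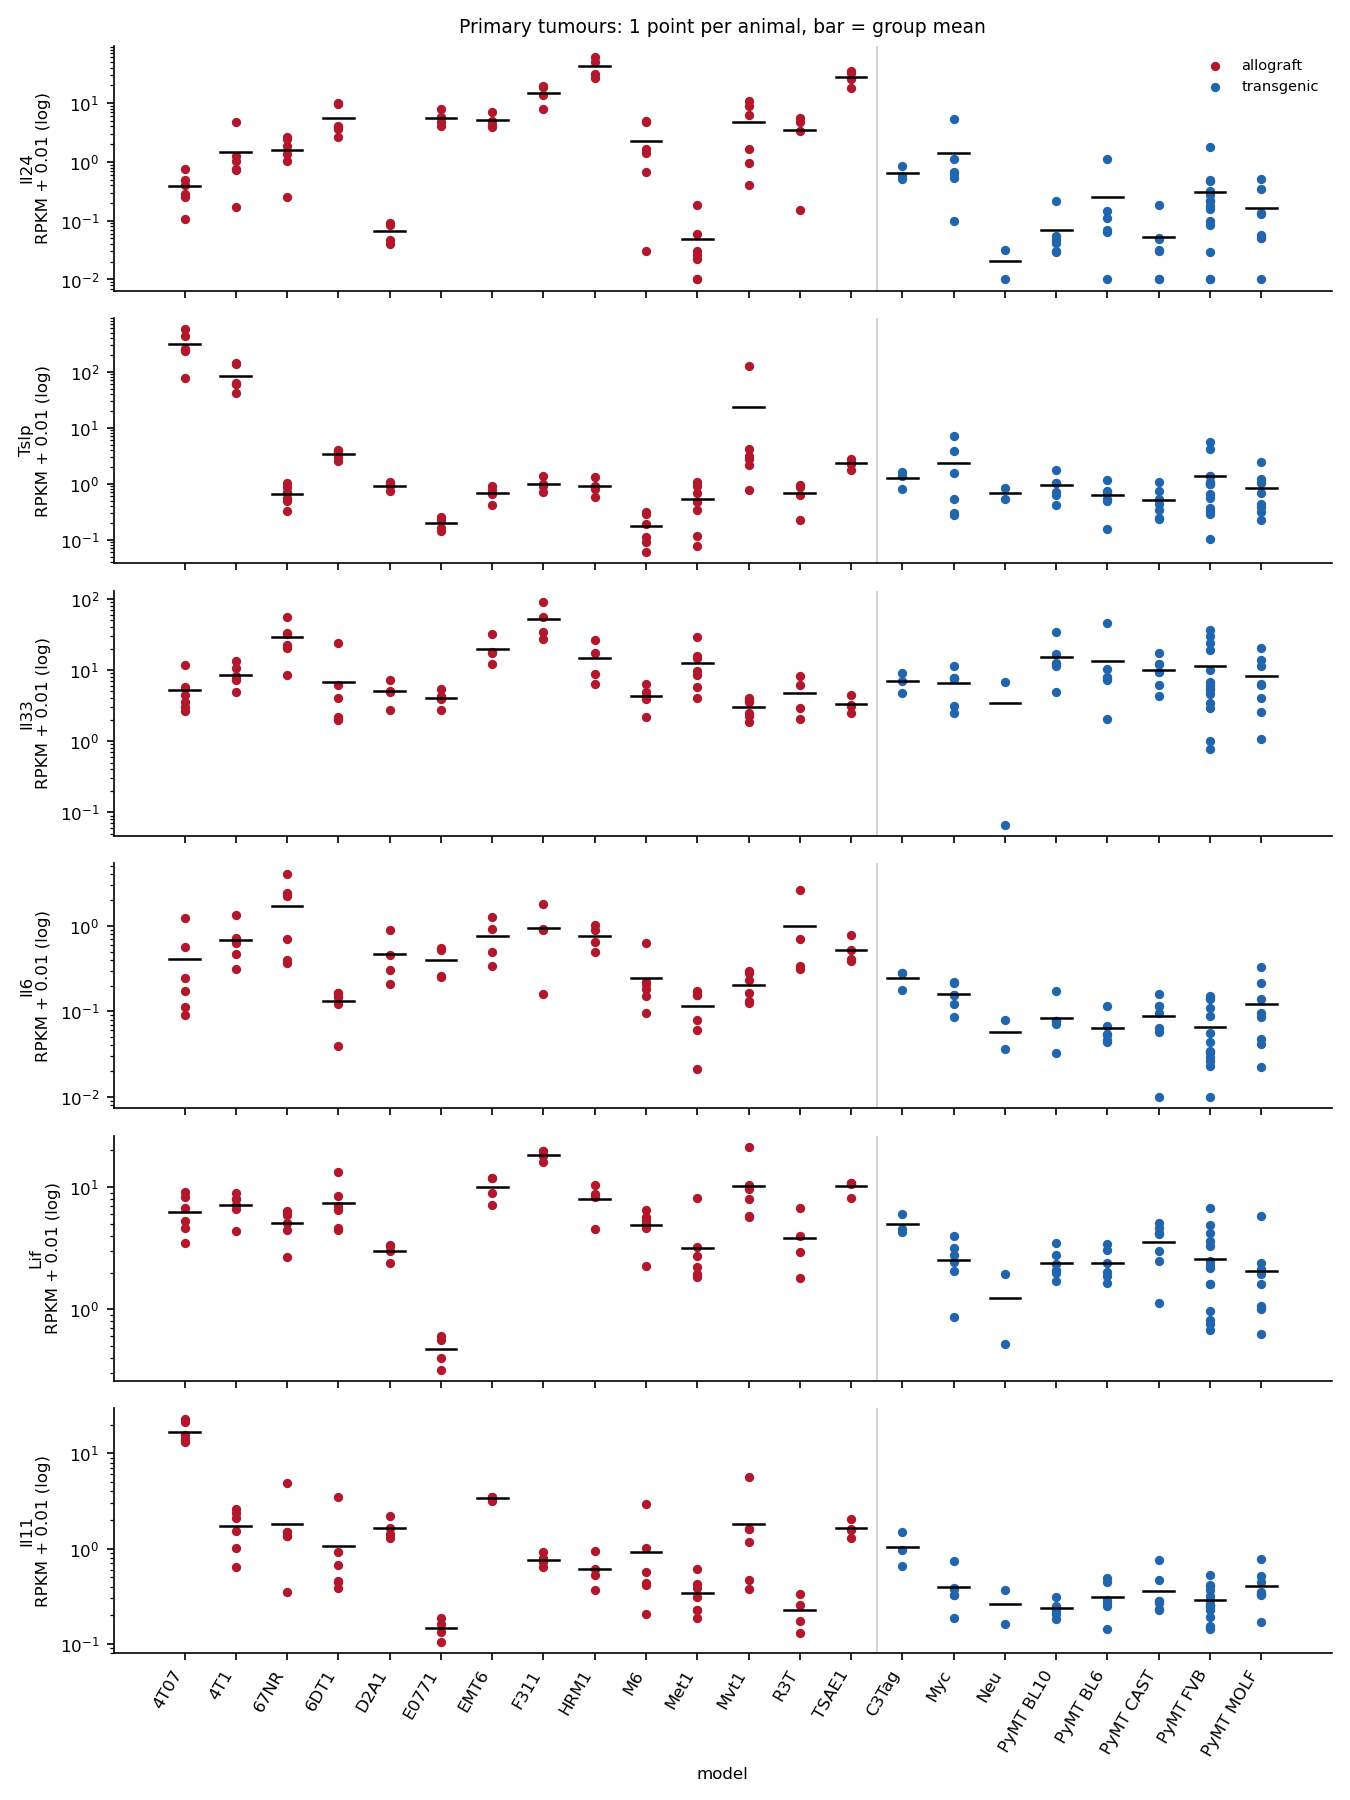
RPKM plus 0.01 on a log axis for each of the 6 genes in primary tumours of 14 allograft lines (red, left) and 8 transgenic groups (blue, right); each point is an animal and each bar a group mean. Tslp stood at 306 RPKM on average in 4T07 and 84.5 in 4T1, and Il24 at 42.3 in HRM1 and 28.0 in TSAE1.

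In metastases outside the lung, levels differed by gene and site. The 6DT1 liver metastasis (n = 1 animal) had 7.95 RPKM of Il24 and 14.6 of Il33, against 0.289 and 1.03 in the liver beside it. Spleen metastases of M6 had 9.03 and 17.3 RPKM of Il33, within the 3.23 to 18.1 of M6 lung metastases, and 0.0873 ± 0.0877 of Il24. Those of Met1 had 6.13 ± 3.07 RPKM of Il33, against 2.86 ± 1.7 in the spleen beside them (n = 2 each). Liver metastases of orthotopic M6 had 0.452, 0.594 and 11.4 RPKM of Il33 and a mean of 0.0141 of Il24. In liver metastases of M6 injected into the heart, Il24 ran from 0 through a median of 0.463 to 4.57 RPKM (n = 7), Il33 from 0.594 through 3.32 to 6.76 and Lif from 0.266 through 1.85 to 4.25. The liver beside them had a mean of 0.00575 RPKM of Il24, 0.454 of Il33 and 0.0038 of Lif (n = 5). Met1 liver metastases had 0.2 ± 0.283 RPKM of Il24 and 3.73 ± 5.05 of Il33 (n = 2), and the liver beside them 0 and 0.664 ± 0.154 (n = 2). Both brain metastases, 1 of M6 and 1 of Met1, were listed at 0 for Il24 and Il6, with 3.4 and 4.1 RPKM of Il33.

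Across the 61 group means, on the log2(RPKM + 1) scale, the members closest to each other were Tslp and Il11 (Pearson r = 0.74) and Il24 and Lif (0.61), with Lif and Il11 at 0.53. The other 12 pairs lay at 0.47 or below. These are descriptions over groups that share lines, tissues and depth. Among 12796 genes, Il24 was most alike to Serpinb2 (0.86), Prl2c3 (0.81) and Prl2c2 (0.79), the last 2 being paralogs that can share reads. Tslp was most alike to Hhip (0.91), Pitx1 (0.86) and Slc16a13 (0.80), and Il11 to Phex (0.88), Dusp27 (0.79) and Pitx1 (0.74). Lif had 3 genes at 0.84 (Cdv3, Lamb1 and Cdc42ep1). Il33 was most alike to Dram1 (0.75), Cd34 (0.73) and Lyz1 (0.72), and Il6 to Ramp3 and Klrc1 (0.58 each) and Ucn2 (0.56).

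Primary tumours of 7 lines were set against the same lines in culture, with the line as the unit. Differences here and below are on the log2(RPKM + 1) scale, first-named group minus the second, with the standard error of limma's fit. That scale understates the differences of low genes. Il33 was higher in tumours (9.86 ± 8.87 against 3.69 ± 4.3 RPKM in culture, SD, n = 7 lines), by 1.57 ± 0.38 (limma, adjusted p = 0.0184), and Lif was lower (6.3 ± 2.24 against 29.7 ± 20.5 RPKM), by -1.84 ± 0.38 (adjusted p = 0.00954). Without the Mvt1 tumour in doubt the differences were 1.58 (adjusted p = 0.0178) and -1.83 (adjusted p = 0.00965). Of the 6 cytokine genes 1 was called higher, 1 lower and 3 not called, and Il6 was under the filter, against a background of 22.2% of all genes called. Without line as a block the adjusted p of Il33 was 0.153. The p-values in all comparisons measure the spread between these samples, since the labels do not say which came from independent experiments.

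Il33 was nearly silent in 3 of the cultured lines and not in their tumours. The 6 tumours of 4T1 had 4.87 to 13.5 RPKM (median 7.77), against 0.234 and 0.23 in cultured libraries coded AS and 0.0815 and 0.0516 in those with another code. Tumours of 6DT1 had 1.96 to 24.3 RPKM, against 0.0106 to 0.0686 in culture (n = 3), and tumours of Mvt1 1.85 to 4.03, against 0.0127 to 0.0358 in culture (n = 3). The groups did not overlap in these 3 lines. In 4T07 they did, at 2.66 to 11.8 RPKM in tumours and 4.13 to 8.76 in culture. Beside Il33, 8 of 11 fibroblast markers tested were higher in tumours (summed at least 310 in tumours against at most 127 RPKM in culture), 5 of 5 endothelial (22.0 to 78.2 against 0.137 to 1.13) and 3 of 3 macrophage markers (38.2 to 204 against 2.6 to 39.7). Their part in the result was not tested.

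Lif was lower on average in tumours than in culture in 7 of 7 lines, and in 6 of 7 without the AS libraries. Cultured 6DT1 cells had 12.0, 11.5 and 12.7 RPKM, Mvt1 cells 18.1, 17.9 and 23.1, Met1 cells 42.6, 52.1 and 59.5, and M6 cells 54.0, 17.8 and 8.28. Cultured 4T1 cells had 23.6 and 22.6 RPKM in the AS libraries and 126 and 82.5 in the others, so the cultures of this line split by library code. Cultured 4T07 cells split as well, with 43.4 and 50.0 RPKM in the AS libraries and 6.08 and 5.55 in the others, which lie inside the range of the 4T07 tumours (3.51 to 9.08, mean 6.27). Cultured 67NR cells had 10.6 and 9.39 RPKM in AS and 6.08 and 5.48 in the others, and those others also lie inside the range of the 67NR tumours (2.69 to 6.32). Without the AS libraries the difference over lines was -1.59 (adjusted p = 0.0497).

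Il24 and Il11 also split between cultures of the same line. Cultured 4T1 cells had 56.9 and 57.1 RPKM of Il24 in the AS libraries and 27.2 and 11.6 in the others, and cultured 4T07 cells 3.17 and 2.89 in AS against 0.0838 and 0.0499. Il11 in cultured 4T07 cells was 99.8 and 118 RPKM in AS and 8.53 and 5.57 in the others. Over 7 lines Il24 differed by -1.07 ± 0.62 (2.29 RPKM in tumours against 9.72 in culture, adjusted p = 0.232), or -1.04 (adjusted p = 0.253) without the tumour in doubt. Il24 was lower on average in tumours than in culture in 6 of 7 lines, and in 5 of 7 without the AS libraries. Mvt1 was the line in which culture was lower, at 0.0, 0.045 and 0.0798 RPKM. Without AS, 4T07 culture was lower too (0.0668 RPKM against 0.373 in tumours). Leaving out each line in turn, with AS kept, gave -1.66 to -0.59 (limma, adjusted p 0.0327 to 0.498), and -1.66 (adjusted p = 0.0327) was the fit without Mvt1. Il6 in M6 was 0.0847 to 0.622 RPKM in primary tumours, against 51.7, 22.9 and 5.49 in cultured cells.

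**Figure D2:**
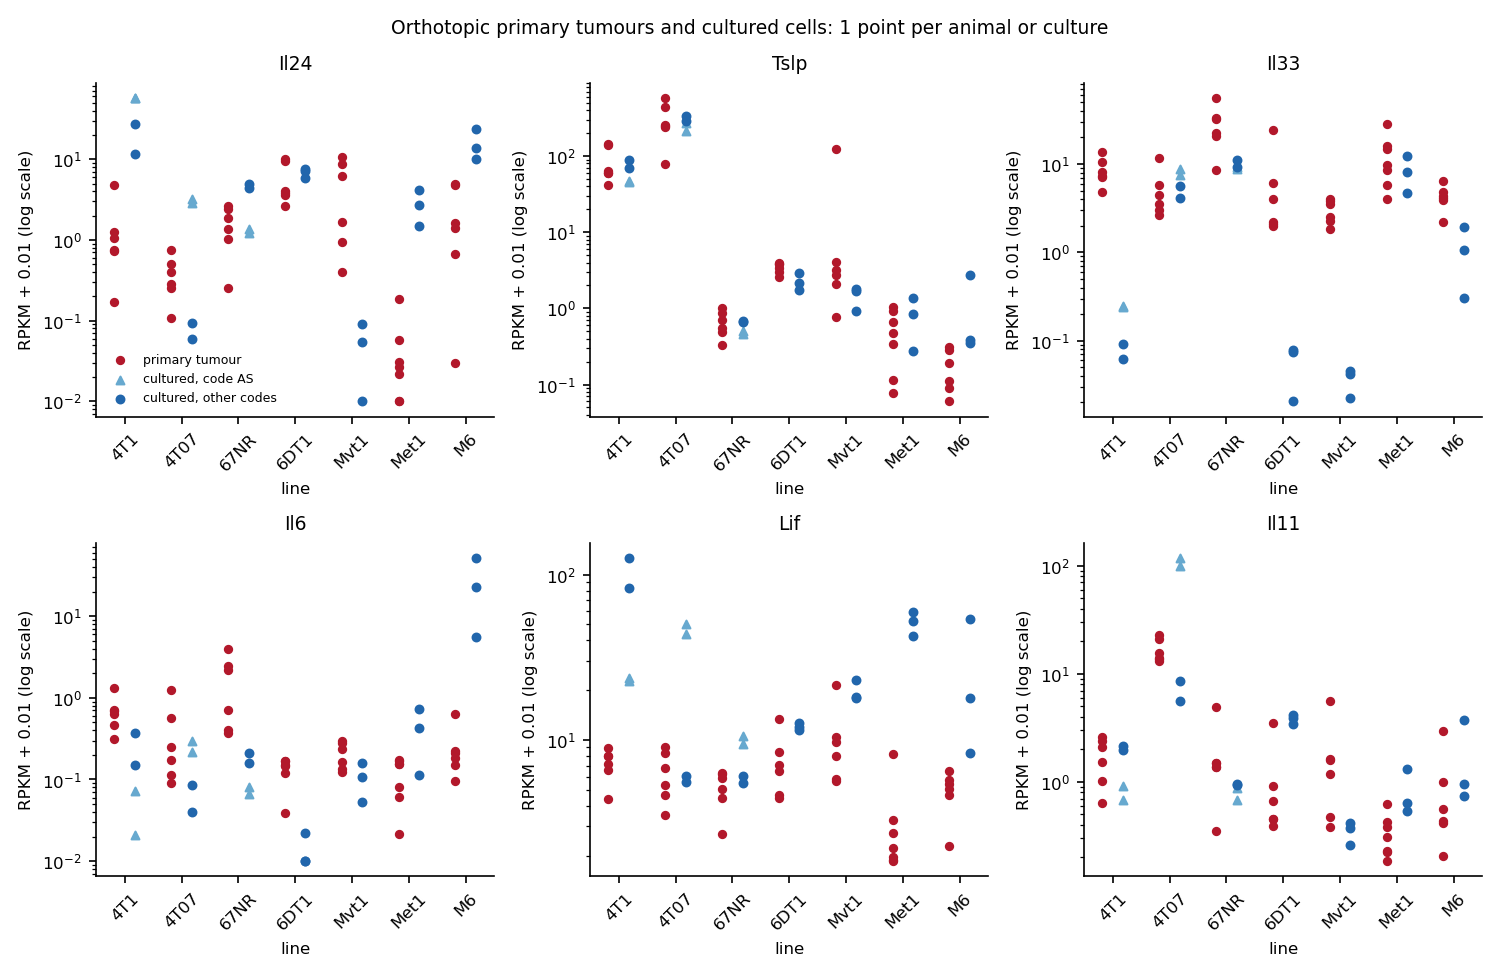
RPKM plus 0.01 on a log axis for each gene in primary tumours (red, left) and cultured cells (blue, right; light triangles are libraries coded AS) of 7 lines, each point an animal or culture. Lif was lower on average in tumours in 7 of 7 lines, and in 6 of 7 without the AS libraries, since the other 4T07 cultures (6.08 and 5.55 RPKM) lie inside the range of their tumours. Il33 was under 0.3 RPKM in cultured 4T1, 6DT1 and Mvt1 cells.

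Many genes downstream of these receptors were called higher in tumours than in culture, where 22.2% of all genes were called. Of 16 genes of STAT3 feedback and response tested, 11 were higher and 0 lower (median 0.9, against -0.05 over all genes). They include Hp (4.05 ± 0.55, adjusted p = 0.00103) and Serpina3n (3.35 ± 0.39, adjusted p = 0.00035), both acute-phase genes, and Lrg1 (2.84 ± 0.20, adjusted p = 1.92e-05). Among 8 receptor genes 4 were higher: Il11ra1 (1.4 ± 0.18), whose near-identical copies make it uncertain, Lifr (1.26 ± 0.22), the oncostatin M receptor Osmr (1.67 ± 0.32) and Il10rb (0.65 ± 0.14). Related ligands split, with Il1b higher (3.07 ± 0.31) and Clcf1, another gp130 cytokine, lower (-1.3 ± 0.29, 9.47 against 29.4 RPKM in culture). Stat3 and Jak3 were among the 3 higher of 9 JAK and STAT genes, and Ccl11 and Arg1 among 3 type 2 genes tested. Markers of fibroblasts, endothelium and macrophages rose in the same tumours, and the part of these cells was not tested.

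The sister lines differed in Tslp and Il33 in opposite directions. The lines are known for a graded capacity to spread, 67NR forming tumours that do not metastasise, 4T07 spreading without forming visible metastases, and 4T1 forming them. Tslp was 78.1, 237, 248, 257, 443 and 575 RPKM in 4T07 tumours and 41.9, 59.8, 60.6, 64.0, 138 and 142 in 4T1 tumours, against 0.321 to 1.01 in 67NR tumours (n = 6 each). The difference was 7.32 ± 0.38 for 4T07 minus 67NR (limma, adjusted p = 4.67e-09) and 5.56 ± 0.27 for 4T1 minus 67NR (adjusted p = 2.04e-09). Cultured cells, which hold no stroma, showed the same order: 4T07 had 269, 215, 340 and 292 RPKM and 67NR 0.489, 0.455, 0.652 and 0.676.

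Il33 was lower in 4T1 tumours (8.61 ± 3.02 RPKM) than in 67NR tumours (28.7 ± 15.9 RPKM, SD, n = 6 each), by -1.49 ± 0.35 (limma, adjusted p = 0.0025). In 4T07 tumours it was also lower than in 67NR (5.2 ± 3.43 RPKM), by -2.21 ± 0.40 (adjusted p = 0.000393). The 67NR tumours had 8.57, 20.5, 22.6, 32.1, 32.8 and 55.6 RPKM, so the lowest overlapped the 4T1 tumours. Il11 was higher in 4T07 than in 67NR tumours (16.7 ± 4.13 against 1.82 ± 1.56 RPKM), by 2.77 ± 0.28 (adjusted p = 1.94e-06), and lower in 4T1 than in 4T07 tumours (1.7 ± 0.787 against 16.7 ± 4.13 RPKM), by -2.73 ± 0.21 (adjusted p = 4.81e-07). The 6 tumours of 4T07 had 13.2 to 22.7 RPKM, above each tumour of the other two lines. Il33 in 4T1 minus 4T07 was 0.72 ± 0.29 (adjusted p = 0.0629), 0.96 (adjusted p = 0.00452) without the 4T07 tumour of animal 2 and 0.85 (adjusted p = 0.0366) without the 4T1 tumour of animal 9.

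In all, 1 of the 6 genes was called higher and 1 lower in 4T1 against 67NR (59.4% of all genes called), 2 higher and 1 lower in 4T07 against 67NR (64.8%), and 0 higher and 2 lower in 4T1 against 4T07 (43.5%). The 3 comparisons share groups. Il6, under the filter, was 0.679 RPKM in 4T1 and 0.395 in 4T07, against 1.67 in 67NR. The other lower call of 4T1 against 4T07 was Tslp (-1.76 ± 0.44, adjusted p = 0.00614). Il24 was 0.373 RPKM in 4T07 and 1.59 in 67NR, under the filter, and was called lower with no filter (adjusted p = 0.00893).

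Many receptors and signalling genes of the sister lines were called, as were many genes of any kind. All-gene shares were 59.4% in 4T1 against 67NR, 64.8% in 4T07 against 67NR and 43.5% in 4T1 against 4T07. The list counts below were not tested against these shares. The Il33 receptor Il1rl1 was lower in 4T07 than in 67NR (0.757 against 10.2 RPKM, -2.55 ± 0.37, adjusted p = 5.9e-05), as was its partner Il1rap (-0.87 ± 0.11). Il1rap was lower in 4T1 too (-2.12 ± 0.19). The Tslp receptor Crlf2 was lower in 4T1 than in 4T07 (7.63 against 12.0 RPKM, -0.59 ± 0.10, adjusted p = 0.00053), and Il7r was higher in 4T07 than in 67NR (3.52 against 0.494 RPKM, 1.59 ± 0.14, adjusted p = 2.45e-07). The gp130 chain Il6st was lower than in 67NR in both 4T1 (-0.86 ± 0.13) and 4T07 (-0.89 ± 0.09). In 4T1 against 67NR, receptors counted 1 higher and 4 lower of 9 (median -0.46), related ligands 3 higher and 4 lower of 8, JAK and STAT genes 3 higher and 2 lower of 9, STAT3 feedback and response 10 higher and 2 lower of 16 (median 0.9) and type 2 genes 2 higher and 1 lower of 4, where the median of all genes was 0.01. In 4T07 against 67NR the counts were 4 and 5 of 10, 2 and 1 of 8, 4 and 4 of 9, 8 and 2 of 17 (median 0.87) and 2 and 1 of 5 in the same order, where the median of all genes was -0.04. In 4T1 against 4T07 they were 2 and 3 of 9, 1 and 2 of 8, 4 and 1 of 9, 4 and 3 of 17 (median 0.57, against 0.05 over all genes) and 0 called of 5, with 0 type 2 genes at an unadjusted p under 0.05.

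Cell type markers moved with these results. Mast cell markers, whose cells carry Il1rl1, were lower in 4T07 than in 67NR tumours in 5 of 5 (summed 0.5 to 10.5 against 11.0 to 132 RPKM) and in 4T1 in 4 of 5 (2.49 to 7.34 against 11.0 to 132). Endothelial markers were lower in 4T07 in 5 of 5 (9.36 to 57.3 against 44.7 to 117 RPKM). Epithelial markers were higher in 4T1 in 7 of 7 (595 to 1575 against 0.666 to 8.39 RPKM). Their part in the Il33 and receptor differences was not tested. For Il33 in culture, without stroma, 4T07 had 4.13 to 8.76 RPKM and 67NR 8.78 to 11.0.

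In 6DT1, metastases carried far more Il24 than the primary tumours of the same animals. The lung metastases of 6 animals had 38.8, 172, 100, 94.2, 87.4 and 73.3 RPKM, and their primary tumours had 3.63, 9.92, 3.84, 2.63, 4.06 and 9.47 RPKM, in the same order of animals. The groups did not overlap, and the difference was 3.86 ± 0.24, a description because this contrast chose the gene. In the 5 animals with more than 1 library, the widest gap was in animal 4 (24.6 and 150 RPKM), and the others ran from 62.7 to 206. Healthy lung was at 0 RPKM of Il24 in 4 of 4 animals, and tumour-adjacent PyMT lung at 0 in 4 of 5 and 0.0373 in the other. The estimated share of lung RNA in 6DT1 metastases was 12.9 to 36.5% (median 27.9%). With that share subtracted the difference was 4.29. The part of lung or of other host cells in the Il24 difference was not tested.

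Il33 and Il11 rose and Tslp fell in the same 6DT1 metastases. Il33 had 37.3, 83.7, 28.9, 42.6, 17.8 and 19.5 RPKM in metastases and 24.3, 3.98, 2.06, 6.13, 1.96 and 2.19 in primary tumours. It was higher in 6 of 6 pairs, by 2.66 ± 0.37 (limma, adjusted p = 0.00169), although the tumour of animal 0 overlapped the metastases. Tslp had 2.1, 3.38, 1.38, 1.81, 1.26 and 1.68 RPKM in metastases and 2.55, 3.84, 3.03, 3.38, 3.92 and 3.77 in primary tumours. It was lower in 6 of 6 pairs (-0.62 ± 0.14, adjusted p = 0.0113), while healthy lung stood at 3.68 RPKM, and subtracting the lung share gave -1.01.

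Il11 had 0.922, 2.55, 4.53, 1.9, 2.93 and 2.32 RPKM in 6DT1 metastases and 0.443, 0.378, 0.442, 0.662, 0.906 and 3.46 in primary tumours, and was higher in 5 of 6 pairs. Its difference of 0.86 ± 0.27 (limma, adjusted p = 0.0392) rested on single animals. The adjusted p was 0.0982, 0.103, 0.0891 and 0.0986 without animal 1, 2, 3 or 4, and without animal 5 the gene fell under the filter. It was 0.0665 with no filter on low values. Lif was not called (8.35 ± 1.67 RPKM in metastases against 7.4 ± 3.3 in primary tumours). Il6, under the filter, averaged 0.549 RPKM in metastases and 0.122 in primary tumours and was higher in 6 of 6 pairs (adjusted p = 0.0352 with no filter). Il24 aside, Il33 and Il11 were called higher and Tslp lower in 6DT1, where 34.4% of all genes were called.

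Genes of STAT3 feedback and response were higher in 6DT1 metastases in 14 of 16 tested and lower in 0, with a median of 0.91 against 0.0 over all genes. Timp1, an inhibitor of metalloproteinases, rose (180 against 75.2 RPKM in tumours, 1.24 ± 0.10, adjusted p = 0.000118), as did the feedback inhibitor Socs3 (31.5 against 17.2, 0.85 ± 0.08, adjusted p = 0.000226), Bcl3 (0.83 ± 0.10) and Lrg1 (2.29 ± 0.30). Receptors counted 3 higher and 1 lower of 9 (median 0.27), with Osmr higher (1.08 ± 0.15) and Il11ra1 lower (-0.51 ± 0.12). Related ligands counted 3 higher of 5, among them Il1b (1.12 ± 0.31). JAK and STAT genes counted 4 higher and 1 lower of 9, with Jak2 (0.49 ± 0.10) among the higher. Of 7 type 2 genes tested 4 were higher and 1 lower (median 0.86). They were led by Retnla (288 against 17.9 RPKM, 4.45 ± 0.41) and the growth factor Areg (1.22 ± 0.18).

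Markers of other cells moved with the 6DT1 contrast. Alveolar type 2 markers were higher in 9 of 9 (summed 2233 to 6844 against 7.48 to 15.0 RPKM), endothelial markers in 5 of 5 (36.9 to 144 against 12.9 to 36.7) and neutrophil markers in 5 of 5 (135 to 510 against 9.35 to 139). Fibroblast markers counted 5 lower and 1 higher (98.3 to 467 against 172 to 931 RPKM), and mast cell markers 4 lower and 1 higher (1.67 to 6.57 against 14.6 to 84.7). Their part in the Il24, Il33, Tslp and Il11 differences and in those of the list genes, Retnla among them, was not tested. Values of the list genes are given without subtraction of a lung share. With a lung share subtracted the Il33 difference was 2.91. But that share was scaled to healthy lung (14.8 RPKM of Il33), where tumour-adjacent lung had 33.1. The genes behind the share are alveolar and club cell genes, not endothelial or neutrophil markers.

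In Mvt1, the other line with Myc among its drivers, Il33 rose as well. Metastases of animals 1 to 6 had 15.9, 12.3, 18.7, 14.9, 21.5 and 51.5 RPKM and their primary tumours 4.03, 3.52, 3.76, 1.85, 2.23 and 2.49. The groups did not overlap, and Il33 was higher in 6 of 6 pairs, by 2.42 ± 0.29 (limma, adjusted p = 0.00295), or 2.35 (adjusted p = 0.00407) without animal 5, whose tumour is in doubt. Il24 had 4.52, 7.86, 22.4, 6.16, 57.8 and 31.3 RPKM in metastases and 0.937, 10.8, 1.66, 8.74, 0.395 and 6.17 in primary tumours. The groups overlapped and 4 of 6 pairs were higher (1.89 ± 0.75, adjusted p = 0.0957), with 1.19 (adjusted p = 0.161) without animal 5.

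Tslp in Mvt1 was 1.88 ± 0.66 RPKM in metastases and 23.0 ± 50.1 in primary tumours (-1.13 ± 0.75, adjusted p = 0.288), a gap made by the tumour in doubt, since without it the difference was -0.24. Lif was 6.37 RPKM in metastases and 10.1 in primary tumours (-0.5 ± 0.25, adjusted p = 0.175), and the difference was -0.63 (adjusted p = 0.111) without animal 5. Of the 6 genes 1 was called higher and 0 lower, where 29% of all genes were called. That share and the list and marker values below include animal 5. The Il33 receptor Il1rl1 fell (0.301 against 1.84 RPKM in tumours, -1.11 ± 0.14, adjusted p = 0.00295) and Il6st rose (0.51 ± 0.07), and receptors counted 2 higher and 2 lower of 10. STAT3 feedback and response split into 4 higher and 4 lower of 16 (median 0.29, against -0.02 over all genes), with Serpina3n higher (2.42 ± 0.43) and Junb lower (-1.06 ± 0.16). Jak3 (-0.64 ± 0.09) and Stat5b (-0.44 ± 0.07) were lower among 9 JAK and STAT genes. Related ligands counted 0 called of 5, with 0 at an unadjusted p under 0.05, and type 2 genes 1 higher (Retnla, 4.98 ± 0.46) and 1 lower (Ccl11, -0.93 ± 0.13) of 6. Alveolar type 2 markers were higher in 9 of 9 (869 to 8260 against 8.07 to 11.3 RPKM), and 8 of 11 fibroblast markers (88.8 to 274 against 234 to 665) and 4 of 5 mast cell markers (3.63 to 11.9 against 1.46 to 94.8) were lower. Their part was not tested. The Il33 difference was 2.52 with a healthy lung share subtracted, under the same limits as in 6DT1.

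Metastases of 4T1 again held more Il33 than their tumours. They had 49.1, 39.9, 22.6, 13.4, 20.2 and 34.3 RPKM, against 10.6, 8.18, 4.87, 7.36, 7.18 and 13.5 in the primary tumours of the same animals (1, 2, 9, 10, 11 and 12). Each metastasis exceeded its own tumour (1.62 ± 0.20, limma, adjusted p = 0.00253), and the difference was 1.79 with the healthy lung share subtracted. Il24 had 0.321, 0.39, 2.51, 14.9, 6.23 and 34.7 RPKM in metastases and 0.158, 1.25, 0.734, 0.71, 1.04 and 4.83 in primary tumours. It was higher in 5 of 6 pairs and not called (1.36 ± 0.47, adjusted p = 0.0897).

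Tslp in 4T1 metastases was uneven, at 81.5, 55.7, 8.54, 346, 64.0 and 2.0 RPKM, against 59.8, 41.9, 64.0, 142, 138 and 60.6 in primary tumours. The mean was higher in metastases and the mean log2 difference negative (-1.02 ± 0.68, adjusted p = 0.331), with 3 of 6 pairs higher. Of the 6 genes 1 was called higher and 0 lower, where 12.1% of all genes were called. Among 16 STAT3 feedback and response genes 4 were higher and 1 lower (median 0.33, against 0.03 over all genes), with Serpina3n (2.06 ± 0.41), Saa3 (1.61 ± 0.32) and Lrg1 (1.43 ± 0.32) higher and Cebpb lower (-0.99 ± 0.25). Type 2 genes counted 3 higher of 7, Retnla (5.96 ± 0.88), Ccl17 (2.02 ± 0.31) and Ccl24 (1.2 ± 0.18). Receptors counted 0 called of 10 (3 at an unadjusted p under 0.05), JAK and STAT genes 0 of 9 (1 at an unadjusted p under 0.05) and related ligands 1 higher of 8 (Ebi3, 0.52 ± 0.13). Alveolar type 2 markers were higher in 9 of 9 (up to 7903 against at most 14.8 RPKM) and 4 of 12 fibroblast markers lower (190 to 467 against 349 to 1227). Their part in the Il33 difference and in those of the list genes was not tested.

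**Figure D3:**
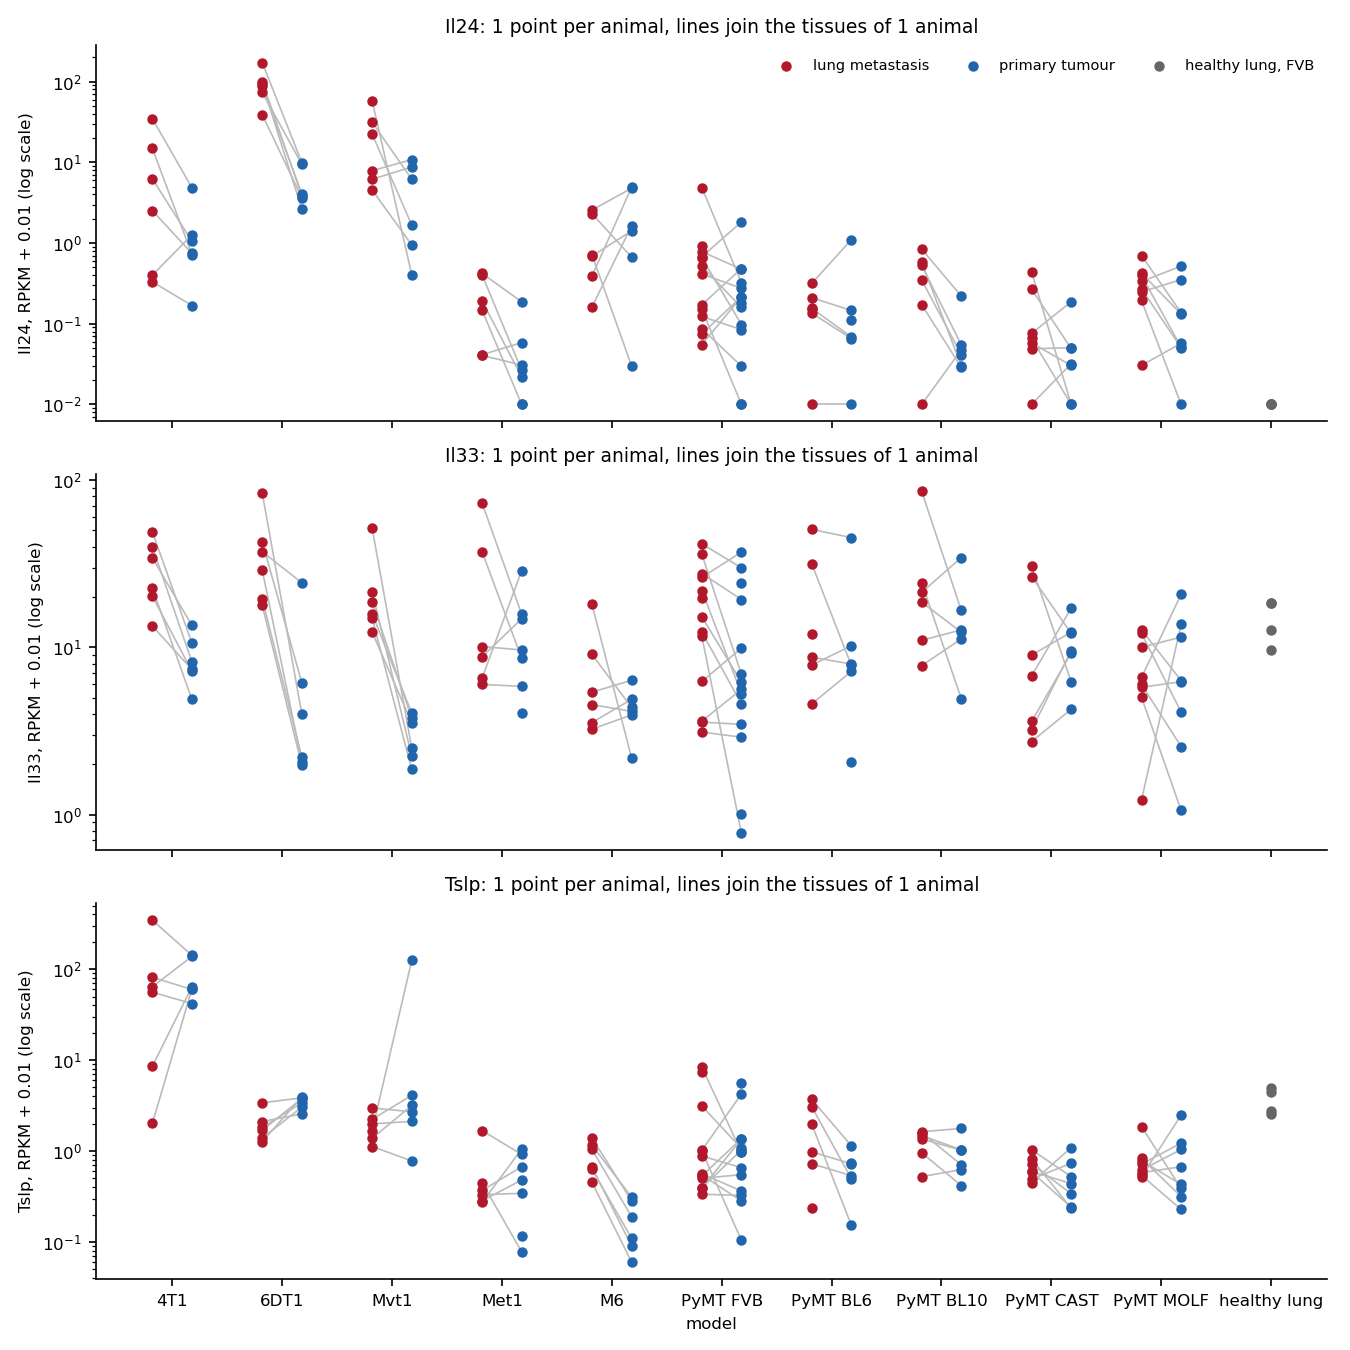
RPKM plus 0.01 on a log axis for Il24, Il33 and Tslp in lung metastases (red, left) and primary tumours (blue, right) of 10 models, lines joining tissues of the same animal, with healthy FVB lung in grey. Il33 was higher in each metastasis than in its tumour in 4T1, 6DT1 and Mvt1, and Il24 in 6DT1 lay at 38.8 to 172 RPKM in metastases and 2.63 to 9.92 in tumours.

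The other 7 models had 0 members called by limma. All-gene calls were 0.317% in Met1, 4.71% in M6 and, for MMTV-PyMT, 1.27% in FVB, 0.651% in BL6, 2.56% in BL10, 4.51% in CAST and 1.1% in MOLF. These backgrounds rest on single animals in several models: leaving out 1 animal at a time gave 16 to 859 genes in BL10 (287 with all), 122 to 905 in CAST (505), 25 to 203 in BL6 (73), 8 to 45 in Met1 (35), 58 to 179 in FVB (141) and 212 to 581 in M6 (529). At an unadjusted p under 0.05 there was 1 member in FVB (Il33) and 0 in each of the other 6. Il33 in FVB had 17.4 ± 13.1 RPKM in metastases and 11.0 ± 11.6 in primary tumours and was higher in 9 of 12 pairs (0.74 ± 0.30, adjusted p = 0.215), and 0.76 (adjusted p = 0.283) without the animal in doubt. In BL10 it had 28.1 RPKM in metastases and 15.3 in tumours (0.61 ± 0.43, adjusted p = 0.386), with 85.6 RPKM in 1 metastasis. In Met1 it had 23.6 ± 26.9 RPKM in metastases and 13.9 ± 8.17 in tumours. These misses do not show that the levels were alike.

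Tslp in M6 and BL6 was under the filter but moved 1 way in every pair. M6 metastases averaged 0.879 ± 0.362 RPKM and tumours 0.165 ± 0.105 (n = 6), the ranges did not overlap, and with no filter on low values the gene was called (0.67, adjusted p = 0.0103). BL6 metastases averaged 2.07 ± 1.29 RPKM and tumours 0.6 ± 0.36 (n = 5), higher in 5 of 5 pairs. Healthy lung had 3.68 RPKM of Tslp, and the median lung share was 15.6% in M6 and 8.35% in BL6 metastases. Its part in these 2 differences was not tested. Il24 stayed low in the PyMT models, at 0.703 RPKM in FVB metastases and 0.339 in their tumours, 0.402 in BL10 metastases and 0.0604 in their tumours, and 0.314 in MOLF metastases and 0.153 in their tumours. In M6 it was 1.13 RPKM in metastases and 2.22 in tumours.

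Of the fixed lists, M6 metastases had 2 of 8 receptors higher, Il7r (6.03 against 0.597 RPKM in tumours, 2.07 ± 0.25, adjusted p = 0.0031) and Il6st (13.3 against 7.0, 0.84 ± 0.11, adjusted p = 0.00541), and Lrg1 (1.76 ± 0.26) among 16 STAT3 feedback and response genes. In BL10 1 of 10 receptors was lower (Il11ra1, -0.85 ± 0.16). CAST had Il18 higher (0.55 ± 0.11) and Ptx3 (-2.27 ± 0.26) and Ccl11 (-1.14 ± 0.24) lower. MOLF had Ccl17 higher (1.05 ± 0.22) and Timp1 (-0.88 ± 0.17) and Ccl11 (-2.07 ± 0.29) lower. In Met1, FVB and BL6 limma called 0 genes of the 5 lists. At an unadjusted p under 0.05, FVB had 4 of 10 receptors and 6 of 9 JAK and STAT genes, BL6 had 0 of 9 and 3 of 9, and Met1 had 1 of 10 and 0 of 9.

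With 1 mean difference per model, Il33 was higher in metastases over the 10 models (20.7 ± 10.0 RPKM, against 9.69 ± 4.38 in primary tumours), by 0.89 ± 0.27 (limma, adjusted p = 0.0276), or 0.88 (adjusted p = 0.0278) without the libraries in doubt. The mean difference was positive in 9 of 10 models and negative in CAST. The MMTV-PyMT models share a transgene, and the p-values treat them as independent. The call was lost without 4T1 (0.8, adjusted p = 0.0609) and without Mvt1 (0.72, adjusted p = 0.0615), and its adjusted p was 0.0543 with no filter. Il6, under the filter, averaged 0.353 RPKM in metastases and 0.173 in tumours, with a positive mean difference in 10 of 10 models and adjusted p = 0.00711 with no filter. Of the 6 genes 1 was called higher, Lif was not called and 4 were under the filter, where 30.8% of all genes were called. Il6st (0.31 ± 0.08), Il7r (0.73 ± 0.16) and Il10rb (0.2 ± 0.07) were higher and Il11ra1 lower (-0.38 ± 0.09) among 10 receptors. Of 5 related ligands 3 were higher, Il18 (0.53 ± 0.09), Il1b (0.75 ± 0.13) and Ebi3 (0.24 ± 0.07). STAT3 feedback and response counted 4 higher and 1 lower of 16 (median 0.14, against -0.04 over all genes), with Hp (1.03 ± 0.15) and Serpina3n (1.13 ± 0.22) higher and Ptx3 lower (-0.86 ± 0.20). JAK and STAT genes counted 2 lower of 9, Stat5b (-0.29 ± 0.06) and Stat5a (-0.21 ± 0.07). Type 2 genes counted 2 higher and 2 lower of 5, with Retnla (2.8 ± 0.51) and Ccl17 (1.35 ± 0.18) higher and the eosinophil chemokine Ccl11 (-1.37 ± 0.13) and Arg1 (-0.6 ± 0.18) lower. Alveolar type 2 markers were higher in 9 of 9, endothelial in 6 of 6 and neutrophil in 6 of 6, and 9 of 11 fibroblast markers were lower. Their part was not tested. With the healthy lung share subtracted Il33 differed by 0.91 (adjusted p = 0.0331).

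The route by which tumour cells reached the lung was compared in 3 lines. In 6DT1, tail vein metastases of 2 animals had 16.9 and 8.73 RPKM of Il24, against 38.8 to 172 in the 6 animals with orthotopic tumours. The ranges did not overlap, and the difference was -2.72 ± 0.45, or -2.28 without the lower animal, a description because these orthotopic metastases chose the gene. The 3 libraries of the higher animal had 13.6, 15.5 and 21.5 RPKM and those of the lower 2.22, 8.59 and 15.4, each under the lowest orthotopic library, 24.6. Il24 aside, 4 of the genes were not called and Il6 was under the filter, where 10.2% of all genes were called. That share rests on the lower tail vein animal.

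The other cytokines in 6DT1 tail vein metastases were not called. Tslp was 5.59 and 2.8 RPKM, against a mean of 1.94 in orthotopic metastases (0.81 ± 0.27, limma, adjusted p = 0.0801), and 0.93 (adjusted p = 0.0198) without orthotopic animal 1. Il11 was 0.655 and 0.584 RPKM, against 2.53 ± 1.2 (-1.05 ± 0.32, adjusted p = 0.0612), and -1.21 (adjusted p = 0.0187) without orthotopic animal 0. Il33 was 17.5 and 9.63 RPKM, against 38.3 (-1.29 ± 0.50, adjusted p = 0.11), and Lif averaged 5.5 RPKM, against 8.35 (-0.52 ± 0.19, adjusted p = 0.0913). STAT3 feedback and response counted 0 higher and 7 lower of 16 (median -0.8, against -0.07 over all genes), with Pim1 (-1.13 ± 0.14), Bcl3 (-1.36 ± 0.18), Junb (-1.03 ± 0.20) and Cebpd (-0.75 ± 0.14) lower. Stat3 (-0.65 ± 0.15) was lower among 9 JAK and STAT genes, Il6st (11.4 against 20.4 RPKM, -0.76 ± 0.20) among 9 receptors and Ebi3 (-0.75 ± 0.19) among 9 related ligands. Type 2 genes counted 0 called of 7, with 3 at an unadjusted p under 0.05. T and NK cell markers were lower in 4 of 5 (6.23 to 9.35 against 16.9 to 34.1 RPKM) and alveolar type 2 markers in 3 of 9 (1390 to 3312 against 2233 to 6844), and their part was not tested. This contrast shares its orthotopic metastases with the contrast against primary tumours.

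In 4T1 and Mvt1 the route made no called difference in the 6 genes. In 4T1, 0 of 5 tested were called and 0 had an unadjusted p under 0.05, where 5.75% of all genes were called. Il24 had 16.6, 5.34, 2.63, 1.44, 5.54 and 0.837 RPKM in tail vein metastases, against 0.321 to 34.7 in orthotopic ones. Tslp was 27.5 to 64.2 RPKM, against 2.0 to 346, and Il33 23.7 ± 19.0, against 29.9 ± 13.5. The Il24 receptor chain Il20rb was higher in 4T1 tail vein metastases (5.16 against 1.28 RPKM, 1.4 ± 0.27, adjusted p = 0.0165), the 1 receptor called of those tested, while Socs1 (-1.11 ± 0.29), Retnla (-4.85 ± 1.14) and Ccl17 (-1.08 ± 0.27) were lower.

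In Mvt1, 0 of 4 tested were called and 1 had an unadjusted p under 0.05, where 4.25% of all genes were called. That gene was Tslp (3.28 ± 1.16 RPKM in tail vein metastases, against 1.88 ± 0.66 in orthotopic ones, 0.55 ± 0.19, adjusted p = 0.125). Il24 had 16.2, 8.81, 7.65, 14.3, 35.0 and 31.2 RPKM in tail vein metastases, against 4.52 to 57.8 in orthotopic ones, so the groups overlapped. Il6 stood at 8.2 RPKM in 1 tail vein metastasis and at 1.03 or below in the rest. Each of the 5 lists had 0 genes called by limma and 1 at an unadjusted p under 0.05.

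The lines 6DT1 and Mvt1 and the MMTV-Myc model, which have Myc among their drivers, were set side by side. In Mvt1 against 6DT1 primary tumours 0 of 4 genes tested were called (0 at an unadjusted p under 0.05), where 5.73% of all genes were called. Without the Mvt1 tumour in doubt 1311 genes were called, against 623 with it. Tslp then differed by -0.38 (limma, adjusted p = 0.279) in place of 0.49 (adjusted p = 0.749), and Il24, Il33 and Lif stayed uncalled. The list values below include that tumour. The library codes differ between these 2 groups, so line and code cannot be told apart. Of the lists, the Tslp receptor Crlf2 (7.76 against 5.23 RPKM, 0.48 ± 0.10, adjusted p = 0.0194) and Cebpb (1.21 ± 0.26) were higher in Mvt1. In 6DT1 against MMTV-Myc tumours, Il24 was higher (5.59 ± 3.22 against 1.39 ± 1.95 RPKM, n = 6 each, 1.61 ± 0.40, limma, adjusted p = 0.00336). These 6DT1 tumours also belong to the contrast that chose Il24. Lif was higher too (7.4 ± 3.3 against 2.54 ± 1.06 RPKM, 1.23 ± 0.26, adjusted p = 0.00123), and its 6DT1 tumours at 4.46 to 13.4 RPKM did not overlap the MMTV-Myc tumours at 0.86 to 3.98. Tslp was 3.42 RPKM against 2.28 (0.8 ± 0.41, adjusted p = 0.105), and 1.14 (adjusted p = 0.0066) without the MMTV-Myc tumour highest in Tslp. Of the 6 genes 2 were called higher and 0 lower, where 62.5% of all genes were called, with an all-gene median of 0.16.

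Receptors for the gp130 cytokines were also higher in 6DT1 than in MMTV-Myc tumours, Il6ra (10.9 against 0.625 RPKM, 2.89 ± 0.16, limma, adjusted p = 8.45e-09) and Il6st (16.6 against 3.1, 2.12 ± 0.13, adjusted p = 3.73e-08). They were among 4 receptors called higher, with 1 lower, of 10 tested, where 62.5% of all genes were called. JAK and STAT genes counted 7 higher and 0 lower of 9 (median 0.91). STAT3 feedback and response counted 3 higher and 6 lower of 17, with Socs1 higher (2.07 ± 0.21) and Lcn2 lower (25.8 against 2017 RPKM, -6.59 ± 0.56). Related ligands counted 3 higher and 2 lower of 6, with Clcf1 (2.08 ± 0.24) and Il18 (3.27 ± 0.44) higher, and type 2 genes 1 higher (Ccl22, 2.06 ± 0.34) and 1 lower (Arg1, -2.35 ± 0.43) of 6. Epithelial markers were lower in 9 of 9 (summed at most 411 in 6DT1 against up to 3170 RPKM in MMTV-Myc) and macrophage markers higher in 3 of 3, and their part in these differences was not tested.

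Over 14 allograft lines and 8 transgenic groups, with the model mean as the unit, Il24 was higher in allograft primary tumours (8.25 ± 12.3 RPKM, against 0.354 ± 0.463 in transgenic ones), by 1.91 ± 0.56 (limma, adjusted p = 0.00966), or 1.92 (adjusted p = 0.0094) without the Mvt1 tumour in doubt. Transgenic means lay mostly under the filter of 1 RPKM, so Il24 passed it mainly through the allografts, where it is high. The 6DT1 tumours used here also belong to the contrast that chose Il24. Leaving out 1 model at a time gave Il24 differences of 1.66 to 2.08. Lif was higher as well (6.99 ± 4.4 against 2.71 ± 1.1 RPKM, 0.94 ± 0.32, adjusted p = 0.0235), but its adjusted p was 0.0534 without MMTV-Neu. Il11 was 2.33 ± 4.21 RPKM against 0.401 ± 0.258 (0.8 ± 0.34, adjusted p = 0.0639), and was called with adjusted p = 0.0321 without 4T07, 0.0447 without Met1, 0.0401 without E0771, 0.045 without R3T and 0.04 with a pseudocount of 0.1. Tslp was 30.4 RPKM against 1.05 (1.1 ± 0.84, adjusted p = 0.311), or 0.9 (adjusted p = 0.392) without the tumour in doubt, while Lif and Il11 kept 0.94 and 0.8. Il33 was 12.3 RPKM against 9.41 and not called. Il6, under the filter, was 0.585 RPKM against 0.101 (adjusted p = 0.00627 with no filter). Of the 6 genes 2 were called higher and 0 lower, where 40.5% of all genes were called.

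Allografts also had more of the related gp130 cytokines Clcf1 (10.2 against 1.72 RPKM, 2.08 ± 0.31) and Osm (0.82 ± 0.17), and of Il1b (1.78 ± 0.36) and Il18 (1.72 ± 0.37), in 6 higher and 1 lower of 8 related ligands (median 0.9, against -0.03 over all genes). Receptors counted 4 higher and 3 lower of 11. The Il24 receptor chain Il20rb was lower in allografts (1.34 against 20.2 RPKM, -2.67 ± 0.42, adjusted p = 4.03e-05), as was Osmr (-1.42 ± 0.37), and Il6ra was higher (1.31 ± 0.32). STAT3 feedback and response counted 4 higher and 7 lower of 17 (median -0.31), with Socs1 (2.08 ± 0.33) and Socs3 (1.31 ± 0.25) higher and Lcn2 (-6.33 ± 0.91) lower. JAK and STAT genes counted 2 higher and 3 lower of 9, and type 2 genes 2 higher of 7. Epithelial markers were lower in 6 of 9 (2.77 to 2352 against 1540 to 1889 RPKM), and macrophage markers were higher in 3 of 3, T and NK cell markers in 5 of 5 and fibroblast markers in 5 of 12 (228 to 1100 against 173 to 573). Their part was not tested, and host strain, driver and library code also vary with the kind of model.

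Tumour-adjacent lung of MMTV-PyMT mice held less Tslp than healthy FVB lung. It had 2.01, 1.79, 1.91, 1.63 and 1.85 RPKM in 5 animals, against 4.95, 2.53, 2.77 and 4.45 in 4 healthy ones, with no overlap (-0.69 ± 0.16, limma, adjusted p = 0.0209). Il33 had 44.2, 57.5, 17.0, 27.8 and 19.1 RPKM in tumour-adjacent lung, against 12.7, 18.5, 18.4 and 9.66 in healthy lung (1.0 ± 0.36, limma, adjusted p = 0.0904). The animals at 44.2 and 57.5 RPKM have codes ending in m, and the other animals with tumour-adjacent lung codes ending in f. Single animals decide both calls, since Tslp had adjusted p = 0.0525 without the animal at 1.63 RPKM and Il33 1.2 (adjusted p = 0.0489) without the animal at 17.0 RPKM of Il33. Of the 6 genes 1 was called lower and 0 higher, where 13.6% of all genes were called. All tumour-adjacent lung carried 1 library code and all healthy lung another, so tissue state and code cannot be told apart. Of the lists, Clcf1 (-0.66 ± 0.13), Jak3 (-0.75 ± 0.12), Tyk2 (-0.32 ± 0.07) and Socs2 (-0.51 ± 0.09) were lower, while receptors (2 of 9 at an unadjusted p under 0.05) and type 2 genes (0 of 5) had 0 called. Alveolar type 2 markers had 0 of 9 called (summed 9319 to 22990 against 10731 to 16674 RPKM).

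**Figure D4:**
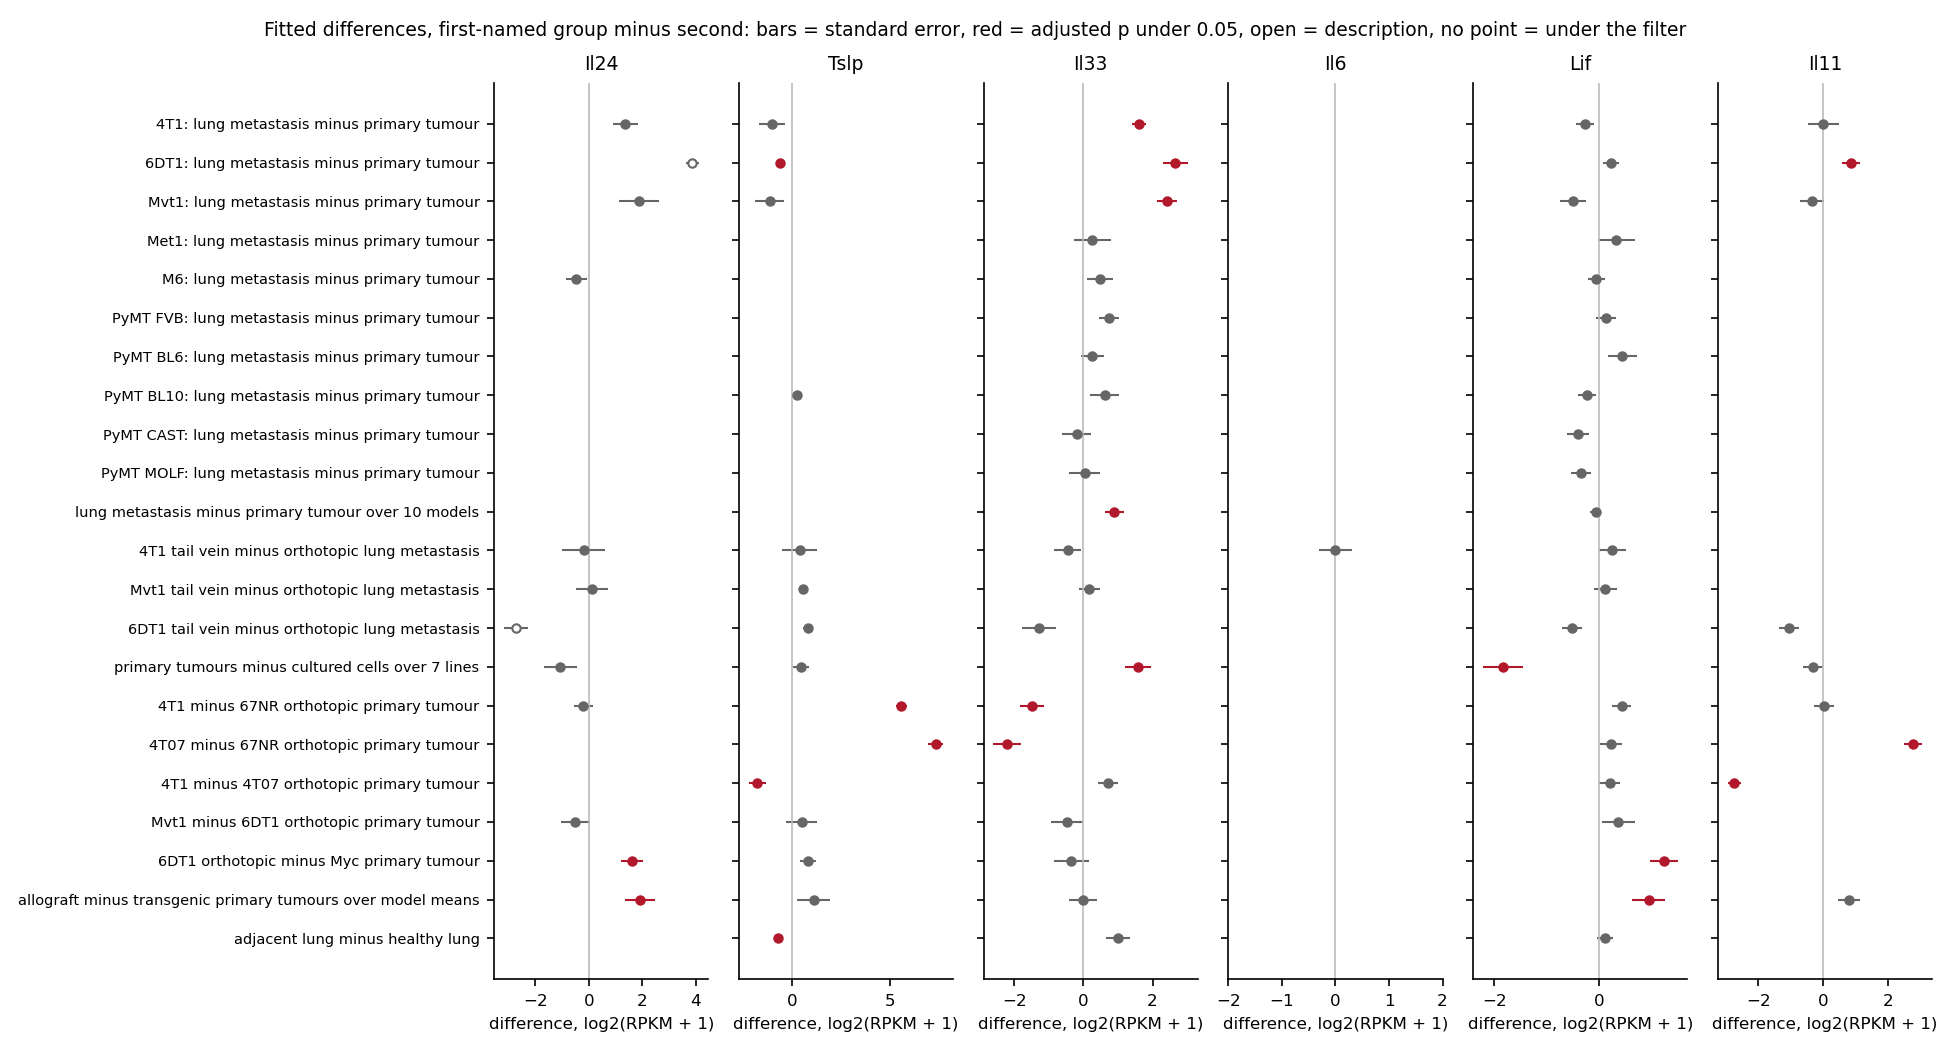
Fitted differences of the 6 genes in 22 comparisons on the log2(RPKM + 1) scale, first-named group minus the second, with standard errors as bars; red points had an adjusted p under 0.05, open points are the 2 Il24 descriptions in 6DT1, and a missing point was under the filter. Il33 had red points on both sides of 0, and Il6 had none.

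Over the 22 comparisons, Il33 passed the filter in each and was called higher in 5 and lower in 2. Lif also passed in each and was called higher in 2 and lower in 1. Il24 was tested in 12, with 3 higher and 1 lower, but 2 of these 4 are the 6DT1 descriptions and do not count as calls. The rest of its calls use the 6DT1 primary tumours of the contrast that chose the gene. Tslp was tested in 15, with 2 higher and 3 lower, and Il11 in 9, with 2 higher and 1 lower. Il6 passed the filter in 1 and was not called.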

How the data were processed

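RNA of snap-frozen tissue or cultured cells was sequenced on the HiSeq2500, per the labels' protocols. Expression was deposited by the authors as RPKM, read counts scaled by gene length and by the reads of the library, for 20188 genes in 335 libraries. The submitters' processing notes name the build mm9 and the programs TopHat and DESeq2, whose versions are not given in the sources used here. RPKM corrects for gene length and depth, and a gene that rises strongly lowers the others.

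Relative depths came from the steps of genes with low values. The total was set by annotated transcript lengths, with 211 of 2303 single-transcript genes at the common depth, so totals are estimates. At these depths the values of the 6 genes came out as whole reads within 0.01 reads in 100% of cases. For Tslp no steps were found at the stricter limit of 0.001 reads. Libraries of the same tissue and animal were averaged. limma 3.58.1 (R 4.3.3, trend and robust moderation) was fitted on log2(RPKM + 1) of animal means over all genes with at least 1 RPKM in as many profiles as the smaller group holds, with Benjamini-Hochberg adjustment over all of them and calls under 0.05. Metastases and tumours were paired by animal (68 pairs in 10 models), since the labels give both to the same animal. Deviations of the pair members correlated over 0.1 in 3 of 6 pairs in 4T1, 5 of 6 in 6DT1, 4 of 6 in Mvt1, 5 of 6 in Met1 and 3 of 6 in M6, and among MMTV-PyMT strains in 7 of 8 pairs of MOLF, 6 of 7 of CAST, 10 of 12 of FVB, 2 of 6 of BL10 and 2 of 5 of BL6. The comparisons over models and lines used their means. Fits were tested on simulated data.

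The members, the 5 lists of related genes and the 12 marker lists were chosen with earlier results of these data known. The 6 genes are named in every group. Of each list up to 4 genes per comparison are named, those called with the smallest adjusted p, and 3 genes most alike per member. A gene that this rule would name is not reported here. Lung shares were estimated from alveolar and club cell genes against healthy lung, and at most 0.95 was subtracted. Alternatives were a pseudocount of 0.1, no filter, median-ratio scaling, 1 library per animal, the lung share subtracted, no replicate block, a single library code and leaving out each animal. Leaving out the libraries in doubt and the AS cultures was chosen after seeing the data. Where title and other entries disagreed, the source or cell line entry was followed, for 1 Met1 tumour, 2 MOLF tumours and 6 Mvt1 tail vein libraries. The strain entry MOLF of 1 tumour titled FVB was set aside for its title. Promoters came from RefSeq, 250 bases each. Tables and plots used Python 3.11.15, pandas 2.3.3, scipy 1.17.1 and matplotlib 3.10.9.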

Additional observations from a re-analysis of the deposited data

Results flagged for a closer look

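In 23 of 130 combinations of a gene and a group, the highest or lowest animal stood apart from the rest by Dixon's criterion. Groups had 4 to 10 animals with a mean of at least 1 RPKM and were counted once per gene. Chance meets the criterion in about 1 in 20 groups of normally distributed values. It was applied to untransformed RPKM, where a long upper tail is flagged more often. The count of 23 therefore does not show an excess over chance. For Il24 the highest animal had 4.83 RPKM in 4T1 primary tumours (next 1.25), 16.6 in 4T1 tail vein metastases (next 5.54), 5.32 in MMTV-Myc tumours (next 1.12) and 4.57 in M6 liver metastases after injection into the heart (next 1.3).

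Tslp had 346 RPKM in 1 orthotopic 4T1 lung metastasis (next 81.5) and 125 in the Mvt1 primary tumour of animal 5 (next 4.09), whose label is in doubt. Il33 had 61.5 RPKM in 1 4T1 tail vein metastasis (next 20.7), 11.8 in 1 4T07 tumour (next 5.72), 24.3 in 1 6DT1 tumour (next 6.13) and 51.5 in 1 Mvt1 metastasis (next 21.5). In MMTV-PyMT mice it had 45.3 RPKM in 1 BL6 tumour (next 10.2) and 85.6 in 1 BL10 metastasis (next 24.4).

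Il6 had 8.2 RPKM in 1 Mvt1 tail vein metastasis (next 1.03). Lif had 8.16 RPKM in 1 Met1 tumour (next 3.25), 21.4 in 1 Mvt1 tumour (next 10.4), 9.95 in 1 MMTV-PyMT BL6 metastasis (next 4.06) and 5.79 in 1 MOLF tumour (next 2.37), and its lowest TSAE1 tumour had 8.09 (next 10.7). Il11 had 11.1 RPKM in 1 orthotopic 4T1 metastasis (next 2.26), 3.97 in 1 4T1 tail vein metastasis (next 1.06), 3.46 in 1 6DT1 tumour (next 0.906), 4.88 in 1 67NR tumour (next 1.49) and 5.61 in 1 Mvt1 tumour (next 1.61).

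Tslp was higher in the metastasis of every pair in M6 and MMTV-PyMT BL6 and lower in every pair in 6DT1. The mean differences lay 1.29 apart between M6 and 6DT1 and 1.48 apart between BL6 and 6DT1 on the log2(RPKM + 1) scale, and neither gap was tested.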

How the results depend on the processing

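Counts of members in this section include Il24 in the 2 6DT1 contrasts given as descriptions. No called difference of the 6 genes changed sign under the alternatives tried. Outside the fits that leave out an animal or model, the count of members called stayed within 1.5 times in 104 cases and moved in 3. It was 1 in M6 metastases with no filter (Tslp), against 0, and 2 in 6DT1 tail vein against orthotopic metastases with a pseudocount of 0.1 (Il24 and Il11), against 1. Without line as a replicate block it was 1 for tumours against culture, against 2. The blocked and unblocked fits of the 10 paired models gave counts within 1.5 times of each other. In 208 fits that left out 1 animal, line or model, the count moved in 8. Ranges were 0 to 1 over 10 models, 1 to 3 for allograft against transgenic tumours and 0 to 2 for tumour-adjacent lung. The count for the 6DT1 routes moved too. Without the 6DT1 tail vein animal lower in Il24, 5 genes were called, against 1187, in a fit with 1 tail vein animal assumed to vary like the others. Leaving out 1 animal gave 491 to 1409 genes against 1363 in 4T1, 2198 to 5341 against 3828 in 6DT1 and 1514 to 4260 against 3172 in Mvt1. It gave 161 to 1521 against 649 in the 4T1 routes and 119 to 704 against 470 in the Mvt1 routes. Mvt1 against 6DT1 had 211 to 1311 against 623, and tumour-adjacent lung 760 to 1735 against 1639. Counts over all genes moved more than those of the members: no block gave 919 against 2387 in tumours against culture, 545 against 287 in BL10 and 59 against 35 in Met1. No filter gave 315 against 141 in FVB, 2 against 73 in BL6, 11 against 287 in BL10, 8 against 35 in Met1 and 500 against 1187 in the 6DT1 routes. Lung subtraction gave 739 against 1363 in 4T1, 167 against 529 in M6, 32 against 73 in BL6, 130 against 287 in BL10, 214 against 121 in MOLF and 109 against 35 in Met1. A single library per animal gave 247 against 505 in CAST and 23 against 35 in Met1, median-ratio scaling 183 against 470 in the Mvt1 routes, and leaving out the tumour in doubt 1311 against 623 in Mvt1 against 6DT1. Within 1 library code, 18 or 13 against 141 were called in FVB, 16 against 287 in BL10 and 76 against 121 in MOLF. The cause was not tested. Depth limits Il24, Il6 and Il11 most, since many of their values rest on few reads.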
